A study of Mus musculus with 12 samples.

Results

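Mitochondrial ribosomal protein genes were taken as the genes whose array annotation symbol begins with Mrpl or Mrps followed by a digit. On the array 74 such genes had a probe set with this symbol alone, 46 for the large subunit (Mrpl) and 28 for the small subunit (Mrps), of 18820 genes tested. Another 9 probe sets listed such a symbol together with that of a neighbour and were left out, so that Mrpl24, Mrpl43, Mrpl53 and Mrps6 were not analysed here. The arrays came from B lymphoma cells of l-MYC;B1-8f mice (C57BL/6J x BALB/c), grown as primary cultures. These mice bear a transgene for MYC, and Cre can remove the variable region of the heavy chain of their B-cell receptor (BCR). All groups share the exposure to TAT-Cre, a recombinase that enters cells from the medium. It left mixed cultures, in which the BCR-positive cells compared here had been exposed too but kept the receptor. After 4 days without inhibitor, or with CHIR99021, an inhibitor of the kinase GSK3, both populations were sorted and total RNA was hybridised. Lymphomas 2564, 2646 and 2676 each gave 1 array to each of 4 groups (untreated BCR-positive, untreated BCR-negative, CHIR99021-treated BCR-positive and CHIR99021-treated BCR-negative), 12 arrays in all. Each lymphoma is a MYC-driven tumour grown as a culture, and neither the age of the mice nor the dose of CHIR99021 is stated in the labels.

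The mitochondrial ribosome translates the messenger RNAs of mitochondrial DNA, which encode core subunits of the respiratory chain and of ATP synthase. Its RNAs come from the organelle's own genome, whereas its proteins are encoded in the nucleus, made in the cytosol and imported. The small subunit decodes the messenger and the large subunit joins amino acids, so both are needed in step. MYC is known to raise the expression of many nuclear genes for mitochondria, and cells that grow and divide fast make more of these ribosomes.

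The deposited values are log2 signals per probe set. The mean signals of the 74 genes over the 12 arrays ranged from 5.81 to 10.7, all above the 30th percentile of all genes (4.12), and their median was 8.62 against 5.13 for all genes. In the large subunit the brightest probe sets were those of Mrpl34 (10.68) and Mrpl23 (10.59) and the dimmest those of Mrpl33 (5.81) and Mrpl44 (6.04). In the small subunit they were Mrps21 (10.37) and Mrps18b (9.82), and Mrps12 (6.26) and Mrps14 (6.91). Brightness also depends on the probes, so these signals do not rank the genes by amount. The median signal of the array over all probe sets lay between 4.71 and 4.92. It was 4.90, 4.82 and 4.92 in untreated BCR-negative cells of lymphomas 2564, 2646 and 2676 and 4.82, 4.79 and 4.84 in untreated BCR-positive cells, a technical value that moved with the groups, and its part in the results was not tested beyond the rescalings given below. Of 7 measured B-cell markers 6 lay above the median of all genes, with Cd79b at 11.42, while Ms4a1, which encodes CD20, lay at 3.24. Medians were 3.87 for 5 T-cell markers, 4.00 for 3 NK-cell, 3.76 for 5 myeloid and 4.31 for 2 erythroid markers, and none of the T-cell, NK-cell or erythroid markers passed the test in any comparison. The myeloid markers Csf1r (6.27) and Itgam (6.32) lay above the median of all genes, as did 4 of 5 markers of stroma and endothelium (median 5.39), Pecam1 at 8.61 included. Pecam1 changed by 0.56 with BCR loss in untreated cultures and by -0.64 with CHIR99021 in BCR-negative cells, and neither passed (limma, adjusted p = 0.107 and 0.0798). The median of the myeloid markers lay between 3.52 and 4.37 on the 12 arrays. With CHIR99021 in BCR-negative cells the myeloid gene Lyz2, of low signal (mean 3.76), rose by 0.46 and Cd79b fell by 0.33, and the part of these markers in the results was not tested. The deleted variable segment Ighv1-72 kept 31.8%, 38.2% and 10.3% of its BCR-positive signal in untreated BCR-negative cells of lymphomas 2564, 2646 and 2676, and 15.0%, 18.2% and 7.92% in treated ones.

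When lymphoma cells lost the BCR in untreated cultures, mitochondrial ribosomal genes were lower almost throughout. Of the 74 genes 14 fell, 1 rose (Mrpl37) and 59 did not pass the test (limma on all 18820 genes with lymphoma as a block, adjusted p under 0.05). Over all genes tested 2.3% fell and 1.91% rose, against 18.9% and 1.35% of these genes. The share of falls was 3.28% among the 13174 genes at or above the 30th percentile of signal. The median change was -0.24 on the log2 scale, a signal 15.4% lower, and the 25th and 75th percentiles were -0.35 and -0.19, beside a median of 0.00 over all genes. A negative change was seen in 73 genes (98.6%, against 51.0% of all genes). At an unadjusted p under 0.05 there were 57, or 77.0%, against 20.5% of all genes, and 64 were lower in BCR-negative cells of all 3 lymphomas (86.5%, against 21.8% of all genes). For 30 of the 74 genes the highest of the 3 BCR-negative arrays lay below the lowest of the 3 BCR-positive arrays, which held for 5.72% of all genes. In these sorted bulk samples less RNA per cell and fewer cells of a kind cannot be told apart.

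**Figure D1:**
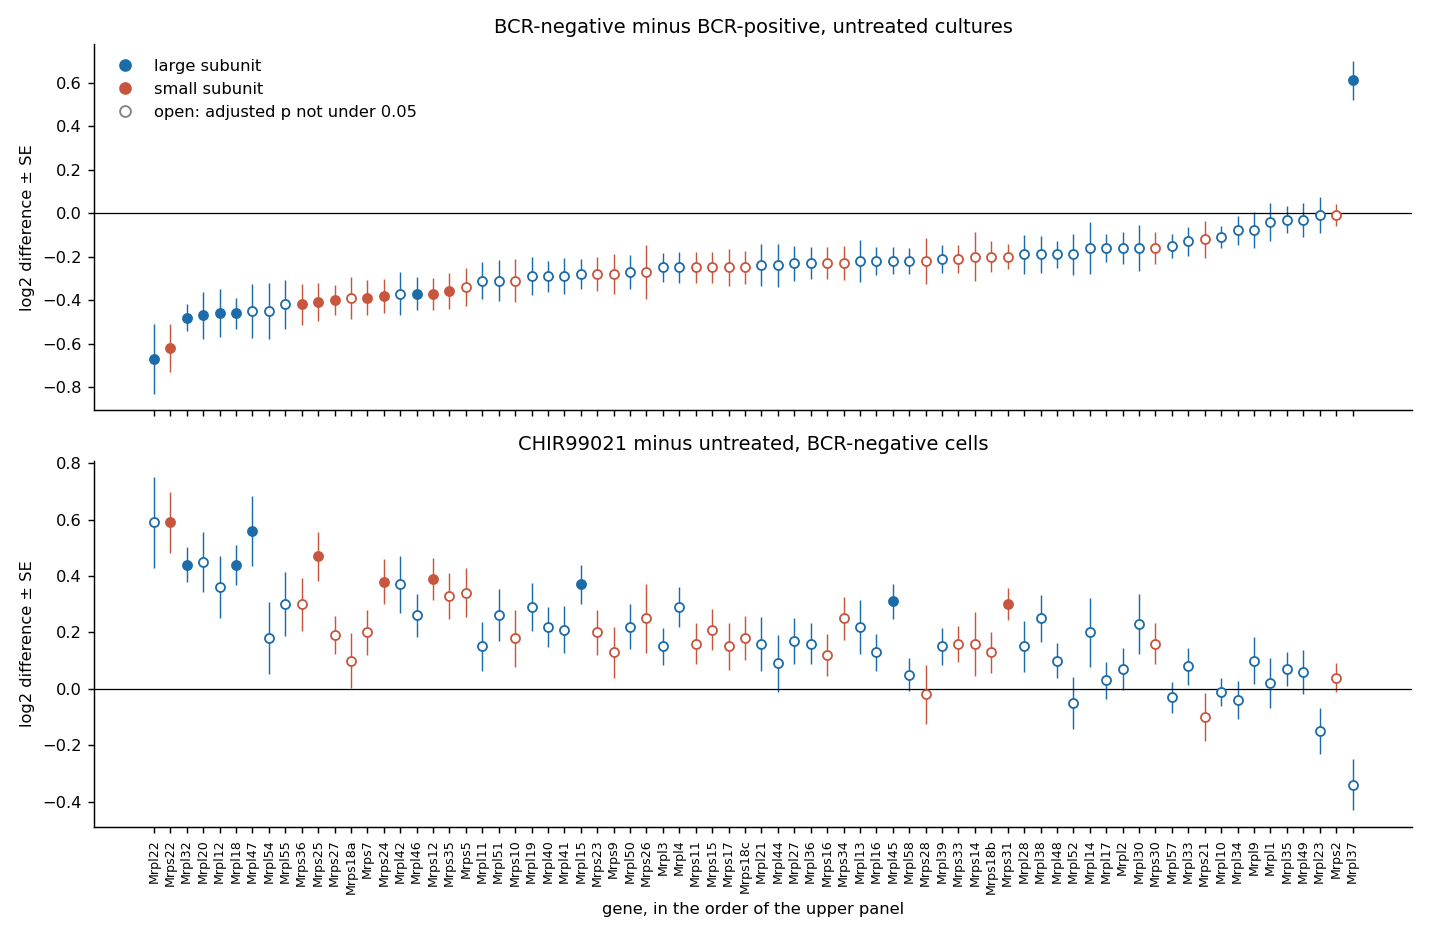
Log2 difference ± SE (limma, n = 3 lymphomas) of each of the 74 genes, ordered by the change with BCR loss in untreated cultures (top), with the change under CHIR99021 in BCR-negative cells below in the same order; filled points passed an adjusted p of 0.05. In the top panel all genes but Mrpl37 lie below 0, from -0.67 to -0.01, and in the lower panel 66 lie above 0. The panels share the untreated BCR-negative arrays.

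The 14 falls were 6 of 46 large subunit genes (13%) and 8 of 28 small subunit genes (28.6%), and the medians were -0.23 and -0.26. The gap between the subunit medians, large minus small, was 0.05 in lymphoma 2564, 0.03 in 2646 and 0.06 in 2676. The 25th and 75th percentiles were -0.30 and -0.16 for the large and -0.37 and -0.22 for the small subunit. The median of the large subunit was -0.19, -0.33 and -0.18 in lymphomas 2564, 2646 and 2676, and that of the small subunit -0.25, -0.36 and -0.24. Both medians were below 0 in every lymphoma, that of the small subunit slightly more so, and the difference between subunits was not tested. Lymphoma 2646 showed the largest medians.

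**Figure D2:**
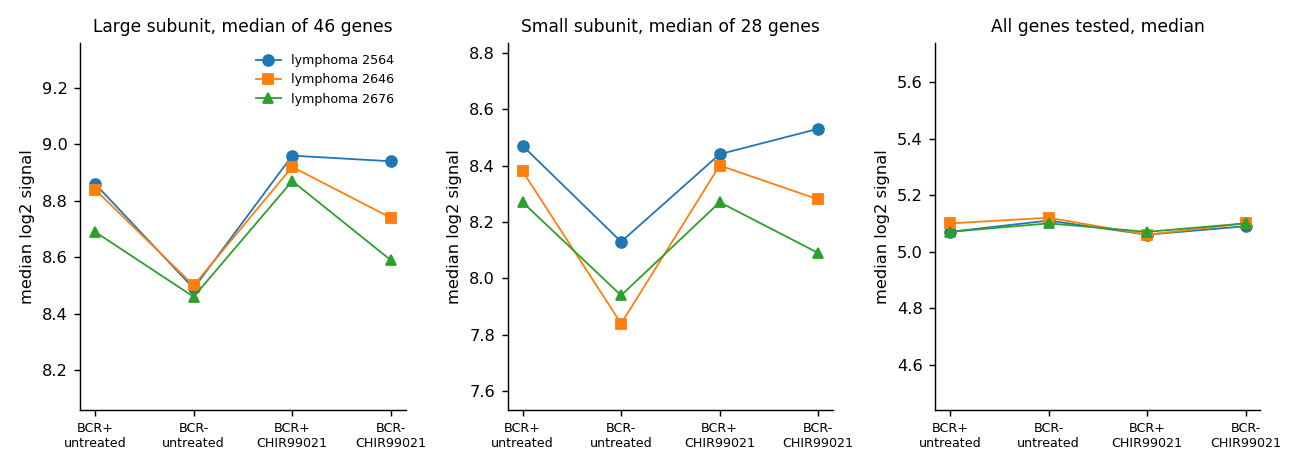
Median log2 signal over the 46 large subunit genes, the 28 small subunit genes and all 18820 genes on each array, with a line for each lymphoma and the same height of scale in the 3 panels. The medians of both subunits are lowest in untreated BCR-negative cells of every lymphoma (8.46 to 8.50 and 7.84 to 8.13), while the median of all genes stays between 5.06 and 5.12.

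In the large subunit the smallest p belonged to Mrpl32, a protein whose maturation by a mitochondrial protease precedes ribosome assembly in yeast and mouse. Its signal was 8.14, 7.87 and 8.02 in untreated BCR-positive cells of lymphomas 2564, 2646 and 2676 and 7.55, 7.54 and 7.50 in BCR-negative cells. The groups did not overlap, and the 3 BCR-negative arrays lay within 0.05 of each other. Mrpl32 fell by 0.48 ± 0.0620 (0.717-fold; limma, adjusted p = 0.00952). Mrpl18, the counterpart of a bacterial protein that binds 5S rRNA, had signals of 9.28, 9.22 and 9.16 in BCR-positive and 8.78, 8.61 and 8.89 in BCR-negative cells, again without overlap. It fell by 0.46 ± 0.0707 (limma, adjusted p = 0.0170). Mrpl46, found in mitochondrial but not in bacterial ribosomes, had 7.68, 7.84 and 7.71 against 7.30, 7.38 and 7.44. The groups stood apart, and it fell by 0.37 ± 0.0749 (limma, adjusted p = 0.0317).

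Mrpl12, the counterpart of the bacterial stalk protein L7/L12 and in human cells a partner of the mitochondrial RNA polymerase, fell by 0.46 ± 0.110 (limma, adjusted p = 0.0482). Its signal was 9.96, 9.81 and 9.92 in BCR-positive and 9.56, 9.13 and 9.61 in BCR-negative cells, so lymphoma 2646 gave the widest step. The other large subunit genes that fell were Mrpl20 (-0.47 ± 0.107) and Mrpl22 (-0.67 ± 0.160; limma, adjusted p = 0.0482). In Mrpl22, whose bacterial counterpart lines the exit tunnel, lymphoma 2646 changed by -1.29, against -0.32 and -0.41 in 2564 and 2676, and the groups overlapped. Mrpl3, whose bacterial counterpart lies near the peptidyl transferase centre, had -0.25 ± 0.0655 and Mrpl58, which releases stalled peptides, -0.22 ± 0.0586 (limma, adjusted p = 0.0613 and 0.0609). Neither passed, nor did Mrpl44 (-0.24 ± 0.100).

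In the small subunit the largest fall was that of Mrps22, found in mitochondrial ribosomes only and known from human mitochondrial disease. Its signal was 8.46, 8.50 and 8.36 in untreated BCR-positive cells and 7.99, 7.53 and 7.94 in BCR-negative cells of lymphomas 2564, 2646 and 2676. The groups did not overlap, and 2646 was the lowest array. Mrps22 fell by 0.62 ± 0.109 (0.649-fold; limma, adjusted p = 0.0233). Mrps27, a pentatricopeptide repeat protein, had 8.64, 8.51 and 8.42 against 8.33, 8.02 and 8.01, and fell by 0.40 ± 0.0676 (limma, adjusted p = 0.0211). Mrps7, whose bacterial counterpart starts the folding of part of the small rRNA, had 9.20, 9.05 and 8.99 against 8.79, 8.64 and 8.65. It fell by 0.39 ± 0.0805 (limma, adjusted p = 0.0330), with steps of -0.41, -0.42 and -0.34 in the 3 lymphomas, the most even of these genes.

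Mrps12, the counterpart of the bacterial decoding protein S12, differed more between lymphomas than with the receptor. Its signal was 6.72, 6.35 and 5.88 in untreated BCR-positive cells and 6.21, 5.93 and 5.71 in BCR-negative cells, so that the groups overlapped although each lymphoma went down. It fell by 0.37 ± 0.0736 (limma, adjusted p = 0.0313). Mrps24 (-0.38 ± 0.0791), Mrps25 (-0.41 ± 0.0873), Mrps35 (-0.36 ± 0.0823) and Mrps36 (-0.42 ± 0.0942) also fell. Mrps36 has also been assigned to the oxoglutarate dehydrogenase complex. Mrps16 (-0.23 ± 0.0737) and Mrps18b (-0.20 ± 0.0723) did not pass.

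Mrpl37, a large subunit protein of mitochondria only, went the other way. Its signal was 10.29, 10.11 and 10.10 in untreated BCR-positive cells and 10.85, 10.93 and 10.55 in BCR-negative cells of lymphomas 2564, 2646 and 2676, with no overlap. It rose by 0.61 ± 0.0907 (1.53-fold; limma, adjusted p = 0.0153), while no other of the 74 genes had a positive change on the deposited scale. Genes with almost no change, picked out after their values were seen, were Mrps2 and Mrpl23 (-0.01 each) and Mrpl35 and Mrpl49 (-0.03 each).

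**Figure D3:**
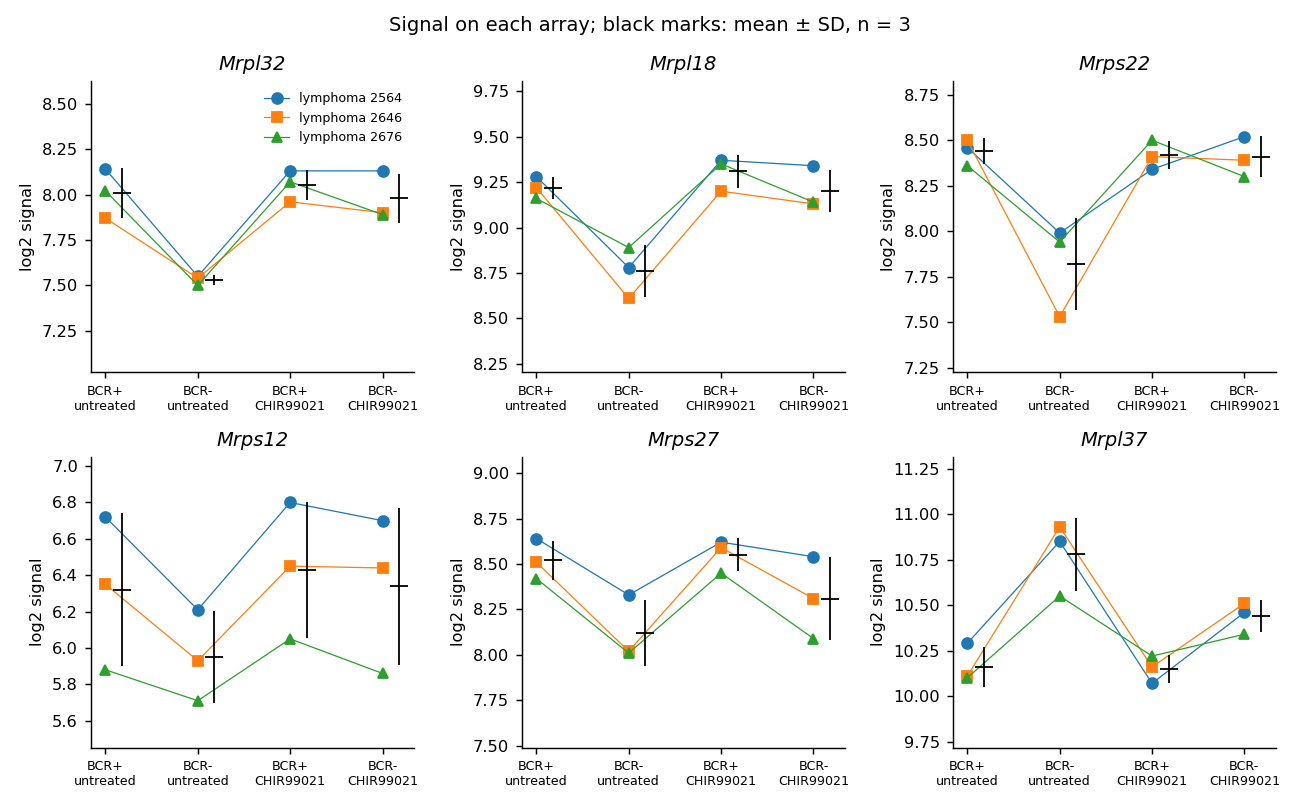
Log2 signal of Mrpl32, Mrpl18, Mrps22, Mrps12, Mrps27 and Mrpl37 on each of the 12 arrays, a line for each lymphoma, with the group mean ± SD (n = 3) as black marks; every panel spans the same height. The first 5 genes are lowest in untreated BCR-negative cells, and Mrpl37 is highest there.

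The promoters were read from RefSeq sequences of build GRCm38.p6, 250 bases before to 50 after each start. Of the 74 genes 65 had 71 windows in the table, on 16 chromosomes. Each was searched on both strands for GCGCATGC, bound by NRF1, CCGGAAGT, bound by ETS factors such as GABP, AANATGGCG, bound by YY1, the E-box CACGTG, bound by MYC among others, and CCAAT, and none of these motifs contains another. The ETS motif stood in 15.5% of the windows (7.14% of the 13142 windows of genes at or above the 30th percentile of signal, 3.89% of all 32851), the YY1 motif in 15.5% (4.35% and 2.38%) and the NRF1 motif in 11.3% (4.72% and 2.71%). The E-box stood in 9.86% (9.56% and 7.15%) and CCAAT in 40.8% (37.1% and 37.4%). Of the 14 genes that fell with BCR loss 13 had a window each. Of these windows 3 held the ETS (23.1%), 2 the NRF1 (15.4%), 2 the YY1 (15.4%), 1 the E-box (7.69%) and 6 the CCAAT motif (46.2%). In the 58 windows of the other mitochondrial ribosomal genes the shares were 13.8%, 10.3%, 15.5%, 10.3% and 39.7%. All these motifs are matches of letters in a window, not binding sites.

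The windows of the genes that passed the test both with BCR loss in untreated cultures and with CHIR99021 in BCR-negative cells, and of Mrpl37, which rose with BCR loss, are shown so that the genes that moved together can be set beside the exception. Capitals mark the motifs above.
Mrpl18 (chr17:12916042-12916341, minus strand): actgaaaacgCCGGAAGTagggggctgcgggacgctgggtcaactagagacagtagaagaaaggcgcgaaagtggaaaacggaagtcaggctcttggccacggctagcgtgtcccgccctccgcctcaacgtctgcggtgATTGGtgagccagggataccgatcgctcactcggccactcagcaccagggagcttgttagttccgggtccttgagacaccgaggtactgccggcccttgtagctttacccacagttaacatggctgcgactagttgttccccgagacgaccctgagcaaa
Mrpl32 (chr13:14612988-14613287, minus strand): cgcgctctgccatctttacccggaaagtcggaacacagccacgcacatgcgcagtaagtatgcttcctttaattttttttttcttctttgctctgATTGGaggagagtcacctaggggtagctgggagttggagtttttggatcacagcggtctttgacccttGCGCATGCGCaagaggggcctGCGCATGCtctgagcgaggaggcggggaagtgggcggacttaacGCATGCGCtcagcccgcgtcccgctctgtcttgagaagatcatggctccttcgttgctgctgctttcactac
Mrps12 (chr7:28741772-28742071, minus strand): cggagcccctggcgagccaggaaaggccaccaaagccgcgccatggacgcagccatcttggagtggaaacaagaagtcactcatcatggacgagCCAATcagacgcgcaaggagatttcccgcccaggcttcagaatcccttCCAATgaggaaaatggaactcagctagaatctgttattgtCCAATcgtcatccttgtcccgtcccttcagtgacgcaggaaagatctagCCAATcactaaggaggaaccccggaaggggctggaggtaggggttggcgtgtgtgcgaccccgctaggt
Mrps22 (chr9:98601630-98601929, minus strand): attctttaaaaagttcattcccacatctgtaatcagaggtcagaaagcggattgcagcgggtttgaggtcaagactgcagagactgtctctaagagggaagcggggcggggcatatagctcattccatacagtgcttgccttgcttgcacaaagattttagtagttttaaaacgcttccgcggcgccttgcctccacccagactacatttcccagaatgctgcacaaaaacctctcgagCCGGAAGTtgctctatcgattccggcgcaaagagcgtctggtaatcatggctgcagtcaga
Mrps24 (chr11:5707652-5707951, minus strand): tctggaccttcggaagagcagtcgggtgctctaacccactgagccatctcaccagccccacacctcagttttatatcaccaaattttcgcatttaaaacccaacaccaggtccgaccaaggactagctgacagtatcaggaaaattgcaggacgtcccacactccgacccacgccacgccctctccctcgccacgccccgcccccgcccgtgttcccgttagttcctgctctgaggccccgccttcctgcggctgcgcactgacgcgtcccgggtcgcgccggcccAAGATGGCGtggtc
Mrps25 (chr6:92183974-92184273, minus strand): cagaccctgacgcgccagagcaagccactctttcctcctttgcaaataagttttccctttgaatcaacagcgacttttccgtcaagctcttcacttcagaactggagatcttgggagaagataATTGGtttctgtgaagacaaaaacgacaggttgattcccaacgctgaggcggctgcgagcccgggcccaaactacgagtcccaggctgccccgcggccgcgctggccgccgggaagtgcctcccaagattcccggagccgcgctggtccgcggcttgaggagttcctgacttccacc
Mrpl37 (chr4:107066817-107067116, minus strand): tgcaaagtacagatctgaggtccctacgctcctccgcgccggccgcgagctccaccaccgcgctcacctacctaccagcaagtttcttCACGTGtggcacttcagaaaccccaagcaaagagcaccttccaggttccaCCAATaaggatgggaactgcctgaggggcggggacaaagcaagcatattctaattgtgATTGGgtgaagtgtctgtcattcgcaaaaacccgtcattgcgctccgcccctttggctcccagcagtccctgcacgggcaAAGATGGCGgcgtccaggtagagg
Mrpl32 held 4 NRF1 motifs, of which a pair overlap as the longer palindrome, and Mrpl18 and Mrps22 an ETS motif each. Mrps12 held CCAAT or its reverse 4 times, Mrpl18, Mrpl32 and Mrps25 once each, and Mrps24 a YY1 motif after its start. Mrpl37 also held a YY1 motif after its start, beside 2 CCAAT motifs and the E-box, which no other window shown here had.

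The number of calls rested on few arrays. When the lymphoma block was dropped, or the other 6 arrays were, none of the 74 genes passed (26 and 60 at an unadjusted p under 0.05), and with lymphoma as a random block 4 did. Without lymphoma 2646 or without 2676 none passed either (27 and 52 at an unadjusted p under 0.05), while 71 and 73 of the 74 changes stayed negative. Without the untreated BCR-positive array of 2564, 2646 or 2676 there were 6, 1 and 0 calls, without the untreated BCR-negative array of 2646 there was 1, and without the treated BCR-negative or BCR-positive array of 2646 there were 6 and 7. Subtracting array medians gave 36 calls and a median of -0.30 (all genes -0.06), and cyclic loess 9 calls, a median of -0.20 (all genes -0.01) and 68 of 74 negative changes.

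In CHIR99021 cultures the genes were lower after BCR loss in lymphomas 2646 and 2676, while the median was near 0 in 2564. The means compared here use none of the arrays of the first comparison. Both share the 3 lymphomas and the spread estimated over all 12 arrays, so their tests are not independent. None of the 74 genes passed, and 3 of all genes did (0.0159%). At an unadjusted p under 0.05 there were 13, or 17.6%, against 8.65% of all genes. The median was -0.12 (-0.10 for the large and -0.15 for the small subunit, beside 0.00 over all genes). Of the 74 changes 71 were negative (95.9%, against 47.7% of all genes). The median was 0.03 in lymphoma 2564 (0.02 over all genes), where 54 of 74 genes were higher in BCR-negative cells. There 10838 of all 18820 genes were higher too. In 2646 and 2676 the median was -0.13 and -0.23 (0.00 and -0.01 over all genes), and 71 and 67 of the 74 were lower. The 3 smallest p among lower genes belonged to Mrps7 (-0.29 ± 0.0805), Mrps27 (-0.24 ± 0.0676) and Mrpl4 (-0.21 ± 0.0694; limma, adjusted p = 0.467, 0.473 and 0.508). Mrpl37 had 0.29 ± 0.0907 (limma, adjusted p = 0.493), with 0.39, 0.35 and 0.13 in the 3 lymphomas, followed by Mrpl49 (0.07) and Mrps31 (0.00).

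Some genes that fell in untreated cultures were near 0 here. Mrps22 had signals of 8.34, 8.41 and 8.50 in treated BCR-positive and 8.52, 8.39 and 8.30 in treated BCR-negative cells of lymphomas 2564, 2646 and 2676, a change of -0.01 ± 0.109. The groups overlapped. Mrpl32 had 8.13, 7.96 and 8.07 against 8.13, 7.90 and 7.89 (-0.08 ± 0.0620). Mrps12 changed by -0.10 ± 0.0736, Mrpl12 by -0.20, Mrpl44 by -0.21, Mrpl3 by -0.11, Mrpl58 by -0.07, Mrps16 by -0.20 and Mrps18b by -0.17, and none passed.

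**Figure D4:**
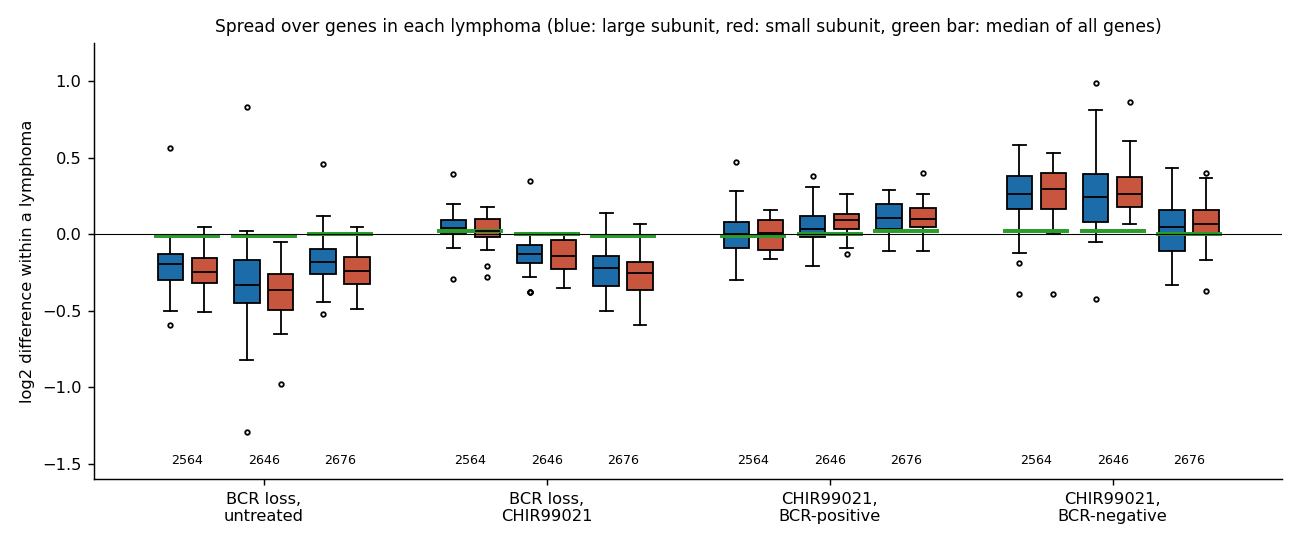
Log2 differences within each lymphoma for 4 comparisons, as boxes over the 46 large subunit (blue) and 28 small subunit genes (red), with median line, quartile box, whiskers to 1.5 times the box height and points beyond; the green bar is the median of all genes. With BCR loss under CHIR99021 the boxes of lymphoma 2564 lie around 0 (median 0.03 over the 74 genes), and those of 2676 lie lowest (-0.23).

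Whether the effect of BCR loss differed between the cultures was tested gene by gene as an interaction, and no gene of the 18820 passed in limma (0%; 990 at an unadjusted p under 0.05). Of the 74 genes 11 had an unadjusted p under 0.05 (14.9%, against 5.26% of all genes), 10 of them with a smaller fall under CHIR99021. The median interaction was 0.10, beside 0.01 over all genes, and it was 0.26, 0.18 and -0.06 in lymphomas 2564, 2646 and 2676. The smallest p were those of Mrpl32 (0.41 ± 0.0877), Mrps22 (0.61 ± 0.155) and Mrpl18 (0.36 ± 0.100), each with an adjusted p of 0.928 in limma. In the other direction Mrpl37 had -0.32 ± 0.128, Mrpl34 -0.06 ± 0.0952 and Mrpl23 -0.03 ± 0.116. Mrps12 had 0.27, Mrpl12 0.26, Mrpl58 0.16, Mrpl3 0.14, Mrps16 and Mrps18b 0.03 each and Mrpl44 0.02. A smaller effect of BCR loss under CHIR99021 is therefore not shown for any single gene.

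In BCR-positive cells no mitochondrial ribosomal gene passed the test for CHIR99021, and their median shift was small. Of all genes 14 passed (0.0744%). Among the 74, 6 had an unadjusted p under 0.05 (8.11%, against 10% of all genes). The median was 0.06, with 0.04 for the large and 0.08 for the small subunit and 0.00 over all genes. Of the 74 changes 56 were positive (75.7%, against 51.2% of all genes). In lymphoma 2564 35 genes were higher, in 2646 51 and in 2676 59. Mrpl45, a protein near the tunnel exit that faces the inner membrane, had 0.26 ± 0.0619, Mrpl4 0.25 ± 0.0694 and Mrpl38 0.24 ± 0.0834 (limma, adjusted p = 0.165, 0.236 and 0.338). The smallest p among lower genes were those of Mrpl58 (-0.10), Mrpl52 (-0.14) and Mrpl23 (-0.12). Mrpl3 (0.01), Mrpl12 (0.09), Mrpl44 (0.07), Mrps12 (0.12), Mrps16 (0.09), Mrps18b (0.10) and Mrps22 (-0.03) did not pass.

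In BCR-negative cells most of them were higher with the same inhibitor. Among the 74 genes 10 rose, none fell and 64 did not pass, against 1.91% of all genes that rose and 1.76% that fell. These 10 were 5 of 46 large subunit genes and 5 of 28 small subunit genes. The median was 0.18, a signal 13.2% higher, with 0.17 for the large and 0.19 for the small subunit and 0.01 over all genes. A positive change was seen in 66 genes, 37 of the 74 had an unadjusted p under 0.05 (against 19% of all genes) and 42 were higher in all 3 lymphomas (56.8%, against 21.2% of all genes). For 14 the treated arrays all lay above the untreated ones, which held for 4.6% of all genes. The median was 0.27 in lymphoma 2564 and 0.25 in 2646 but 0.06 in 2676, where 48 of 74 genes were higher. The untreated BCR-negative arrays also stand in the first comparison, so a fall there and a rise here are not independent.

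Mrps22 had 7.99, 7.53 and 7.94 in untreated and 8.52, 8.39 and 8.30 in treated BCR-negative cells of lymphomas 2564, 2646 and 2676, without overlap, and rose by 0.59 ± 0.109 (1.5-fold; limma, adjusted p = 0.0253). Mrpl32 went from 7.55, 7.54 and 7.50 to 8.13, 7.90 and 7.89 and rose by 0.44 ± 0.0620 (limma, adjusted p = 0.0105). Mrpl18 went from 8.78, 8.61 and 8.89 to 9.34, 9.13 and 9.14 and rose by 0.44 ± 0.0707 (limma, adjusted p = 0.0150). In these genes every treated array lay above every untreated one. Mrpl47, the counterpart of a bacterial protein at the exit tunnel, rose by 0.56 ± 0.125, Mrps25 by 0.47 ± 0.0873, Mrps12 by 0.39 ± 0.0736, Mrps24 by 0.38 ± 0.0791, Mrpl15 by 0.37 ± 0.0690, Mrpl45 by 0.31 ± 0.0619 and Mrps31 by 0.30 ± 0.0572. Their adjusted p in limma lay between 0.0241 (Mrpl15) and 0.0414 (Mrpl47).

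Mrpl37 again stood on the other side, with signals of 10.85, 10.93 and 10.55 in untreated and 10.46, 10.51 and 10.34 in treated BCR-negative cells, each treated array lower than each untreated one. Its change of -0.34 ± 0.0907 did not pass (limma, adjusted p = 0.0717). Mrpl12 (0.36 ± 0.110; limma, adjusted p = 0.105), Mrpl3 (0.15), Mrpl44 (0.09), Mrpl58 (0.05), Mrps16 (0.12) and Mrps18b (0.13) did not pass either. The count of 10 also rested on few arrays. It was 0 with no lymphoma block or with only the 6 arrays compared (18 and 33 at an unadjusted p under 0.05), 2 with a random block, 0, 0 and 3 without lymphoma 2564, 2646 and 2676, and 0, 0 and 16 without the treated BCR-negative array of 2564, 2646 and 2676. Without the untreated BCR-negative array of 2646 it was 1, and after subtraction of array medians 16.

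Treated BCR-negative cells, set against untreated BCR-positive cells, had a small median difference in these genes, though most were lower in 2646 and 2676. None of the 74 passed, and 3 of all genes did (0.0159%). At an unadjusted p under 0.05 there were 9 (12.2%, against 8.74% of all genes), and the median was -0.06 for each subunit, beside 0.01 over all genes. It was 0.05 in lymphoma 2564, -0.09 in 2646 and -0.13 in 2676. A negative change was seen in 55 of the 74 genes (74.3%, against 46.7% of all genes). In lymphomas 2564, 2646 and 2676 27, 55 and 64 of them were lower. Mrpl57 (-0.18 ± 0.0549), Mrps27 (-0.21 ± 0.0676) and Mrps18a (-0.29 ± 0.0974) had the smallest p among lower genes, and Mrpl37 (0.28 ± 0.0907), Mrps31 (0.10) and Mrpl45 (0.09) among higher ones. Mrps22 had -0.04, Mrps12 0.02, Mrpl12 -0.11, Mrpl3 -0.10, Mrpl44 -0.14, Mrpl58 -0.17, Mrps16 -0.11 and Mrps18b -0.07. A p that misses the threshold does not show that these levels were equal.

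Genes that work with the mitochondrial ribosome were read in the same comparisons. With BCR loss in untreated cultures 2.3% of all genes tested fell, 1.91% rose and their median was 0.00. Of 23 assembly and rRNA modification genes 3 fell and none rose (median -0.13, 22 negative). These were Pnpt1, an RNA-degrading enzyme (-0.34 ± 0.0579), the helicase gene Ddx28 (-0.40 ± 0.0803) and Lrpprc, which stabilises mitochondrial messenger RNA (-0.31 ± 0.0699). Of 14 translation factors 1 fell, the elongation factor gene Gfm1 (-0.46 ± 0.0817), with a median of -0.16, while Gfm2 (-0.28 ± 0.0733) did not pass. Of 19 genes for mitochondrial tRNA synthetases and the amidotransferase 2 fell, Rars2 (-0.36 ± 0.0749) and Cars2 (-0.44 ± 0.0990), with a median of -0.16. Of 3 ribosomal subunit genes under other symbols none passed, Dap3 (-0.24 ± 0.0640) and Ptcd3 (-0.31 ± 0.0977) included (median -0.31).

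Under CHIR99021 in BCR-negative cells Pnpt1 (0.33 ± 0.0579), Lrpprc (0.35 ± 0.0699) and the pseudouridine synthase gene Rpusd4 (0.38) rose among the assembly genes (median 0.09), and no factor or synthetase gene passed (medians 0.19 and 0.11), Gfm1 (0.34), Mtrf1 (0.40), Cars2 (0.40) and Fars2 (-0.37) included. Dap3 (0.17) and Ptcd3 (0.26) did not pass. Over all genes tested 1.91% rose in this comparison, and the median was 0.01. The medians of 7 genes for transcription and copying of mitochondrial DNA were -0.12 with BCR loss and -0.04 under CHIR99021 in BCR-negative cells, the second turning to 0.02 with array medians subtracted. Of these, Polg2, the accessory subunit of the mitochondrial DNA polymerase, moved opposite to the ribosomal genes. It rose with BCR loss by 0.63 ± 0.124 and fell by 0.67 ± 0.124 under CHIR99021 in BCR-negative cells (limma, adjusted p = 0.0303 and 0.0242), while Tefm (-0.23) did not pass in the first and Polg (-0.13) in the second. Of 10 regulators none passed with BCR loss, Yy1 (-0.18) and Pprc1 (-0.21) being nearest. Esrra, a nuclear receptor of mitochondrial gene programmes, rose under CHIR99021 in BCR-negative cells (0.39 ± 0.0887), while mouse Myc, at -0.16 ± 0.0551, missed the threshold. Whether the probe set of mouse Myc also reads the MYC transgene was not tested. In the other 4 comparisons no gene of these 6 lists passed. The 74 cytosolic ribosomal protein genes had medians of 0.05 with BCR loss and -0.03 under CHIR99021 in BCR-negative cells, which turned to -0.01 and 0.03 with array medians subtracted, and none passed in either.

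**Figure D5:**
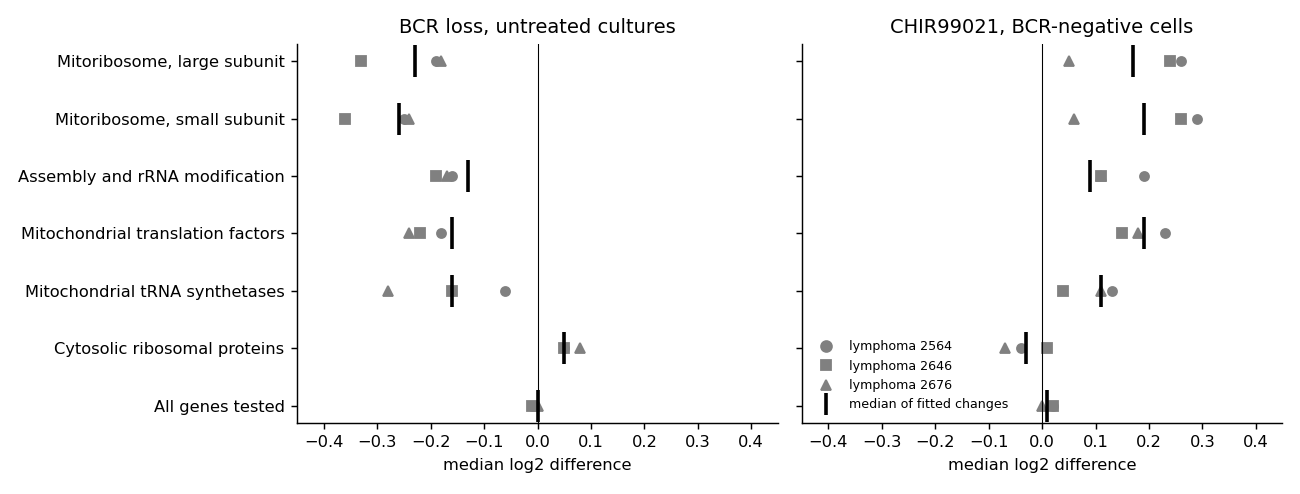
Median log2 difference of the genes of each list with BCR loss in untreated cultures (left) and with CHIR99021 in BCR-negative cells (right), as the median of the fitted changes (bar) and within each lymphoma (points). On the left both subunits of the mitochondrial ribosome lie at -0.23 and -0.26, and the cytosolic ribosomal proteins lie at 0.05, or at -0.01 with array medians subtracted.

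Many of these genes start back to back with a neighbour on the other strand. With a start within 1000 bases, 26 of 65 (40.0%) had such a neighbour, against 18.4% of tested genes at or above the 30th percentile of signal. Mrpl46 and Mrps11 face each other across 42 bases and both were lower with BCR loss, Mrpl46 by the value above and Mrps11 by -0.25 ± 0.0724, which did not pass (limma, adjusted p = 0.0860). Mrps12 starts 147 bases from Sars2, the mitochondrial seryl-tRNA synthetase gene, which had -0.24 ± 0.0872. Cyb5rl, 128 bases from Mrpl37 and looked at after the values of Mrpl37 were seen, rose with BCR loss by 0.64 ± 0.140 (limma, adjusted p = 0.0389), and had -0.38 ± 0.140 under CHIR99021 in BCR-negative cells. Over the 23 genes with a measured neighbour, the median change with BCR loss was -0.27 for the ribosomal gene and -0.02 for the neighbour, of which 12 were lower. In these counts Mrpl46 and Mrps11 each stand as the other's neighbour.

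Several probe sets represented 12 of the 74 genes, and the brightest stood for each. With BCR loss the probe sets of 11 of the 12 had the same sign, among them Mrpl12 (-0.46 and -0.43), Mrpl18 (-0.46 and -0.55) and Mrps5 (-0.34 and -0.36). The exception was Mrps30, with -0.16 for the probe set used and 0.03 for a dim one. The same sign did not always mean a similar size. For Mrpl47 the probe set used had 0.56 under CHIR99021 in BCR-negative cells and -0.45 with BCR loss. Its other probe set, of low signal (mean 4.93), had 0.03 and -0.02. For Mrpl18, which also rose under CHIR99021, the values there were 0.44 and 0.45. Averaging all probe sets per gene left 9 rises in that comparison, against 10 with the brightest. With BCR loss the counts stayed at 14 falls and 1 rise.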

How the data were processed

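RNA of 12 samples of sorted lymphoma cells was hybridised to Mouse Gene 1.1 ST arrays (Affymetrix). Per the submitters' processing notes the authors used RMA from Affymetrix Power Tools, with no version stated, and deposited a log2 value for each probe set. RMA sets the probe signals of all arrays to one distribution, so a shift common to all genes may not be seen. The array medians of the deposited values per probe set still differed, from 4.71 to 4.92. Of 35556 probe sets 21218 carried 1 gene symbol, 1881 several and 12457 were not listed. Where a gene had several probe sets the brightest stood for it, which left 18820 genes. In limma 3.58.1 (R 4.3.3) group and lymphoma entered 1 model over the 12 arrays (6 residual degrees of freedom), with eBayes and Benjamini-Hochberg adjustment over all genes. Values are differences ± SE, n = 3 lymphomas. P-values set each change against the residual spread of this model over all 12 arrays, which eBayes draws towards a value common to all genes. The replicates are these 3 lymphomas. The number of arrays limits the precision.

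Arrays were paired by the lymphoma number of the labels, whose populations grew in mixed culture per the design text. For arrays that share a lymphoma, the departures from their groups' means correlated with r between 0.813 and 0.907 (18 pairs). The members, lists and alternatives were chosen with earlier results of these data known. Named genes were, per comparison, up to 10 called members with 1 sign in all 3 lymphomas, or where under 3 were called the 3 smallest p per direction; 8 members looked at in every comparison; the brightest and dimmest; and the 2 smallest p of each further list, printed for the comparisons with calls (none of the cytosolic ribosomal genes is named). Further called genes are named with their counts. Genes of mitochondrial DNA were not analysed here.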

Additional observations from a re-analysis of the deposited data

How the results depend on the processing

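The subunit medians moved by less than the SD between lymphomas in all 274 recalculations, but that SD is wide. Leaving out a lymphoma can hardly move a median by more, and changes of the model alone leave it unmoved. This count therefore says little about stability. Leaving out a lymphoma or an array, the large and small subunit medians ranged from -0.28 to -0.19 and -0.30 to -0.23 for BCR loss in untreated cultures, and from 0.11 to 0.25 and 0.14 to 0.28 for CHIR99021 in BCR-negative cells. The ranges were -0.18 to -0.05 and -0.22 to -0.06 for BCR loss in CHIR99021 cultures, 0.01 to 0.09 and 0.04 to 0.12 for CHIR99021 in BCR-positive cells, and 0.05 to 0.20 and 0.07 to 0.22 for the interaction. For treated BCR-negative against untreated BCR-positive cells they were -0.13 to 0.00 and -0.12 to 0.01, so that the small subunit median changed sign. With BCR loss in untreated cultures 15 members were called. The count was 36 with array medians subtracted, 9 after cyclic loess, 4 with a random block, 0 with no replicate block and 0 with only the arrays compared, and leaving out a lymphoma or an array gave 0 to 20. With CHIR99021 in BCR-negative cells 10 were called, against 16 with array medians subtracted, 2 with a random block, 0 with no replicate block and 0 with only the arrays compared, and 0 to 16 when a lymphoma or an array was left out. In that comparison eBayes with its trend and robust options called 1 fall beside 10 rises. Leaving out the untreated BCR-negative array of 2676 gave 1 fall beside 9 rises. Without the block the spread between lymphomas enters the error, and with fewer arrays the residual degrees of freedom fall. The cause of the other changes was not tested. In the other 4 comparisons no member was called under any alternative run. The interaction could not be fitted with only the arrays compared, since it uses all 4 groups.

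Each of the 25 called changes of the 74 genes had the same sign in all 3 lymphomas, so leaving out a lymphoma could not turn it. Changes of the model alone, such as dropping the block, leave the estimates as they are. Within that limit, none of the called changes changed sign under the 23 alternatives. Changes near 0 did, and none of these was called. After cyclic loess the interactions of Mrps16 and Mrps18b were 0.00 each. With array medians subtracted Mrps22 had 0.02 (CHIR99021, BCR-positive cells) and Mrps31 -0.05 (BCR loss, CHIR99021 cultures). Leaving out a lymphoma or an array gave these ranges for BCR loss in CHIR99021 cultures: Mrpl49 -0.01 to 0.12, Mrps31 -0.06 to 0.07 and Mrps22 -0.11 to 0.08. For CHIR99021 in BCR-positive cells Mrpl3 ranged from -0.04 to 0.07, Mrpl44 from 0.00 to 0.17 and Mrps22 from -0.11 to 0.06. For CHIR99021 in BCR-negative cells Mrpl44 ranged from -0.05 to 0.21, Mrpl58 from -0.01 to 0.10 and Mrps16 from 0.00 to 0.19. For the interaction Mrpl34 ranged from -0.16 to 0.05, Mrpl23 from -0.12 to 0.08, Mrpl44 from -0.14 to 0.19, Mrps16 from -0.11 to 0.12 and Mrps18b from -0.03 to 0.09. For treated BCR-negative against untreated BCR-positive cells Mrpl12 ranged from -0.17 to 0.01, Mrps12 from -0.03 to 0.08, Mrps18b from -0.15 to 0.02 and Mrps22 from -0.09 to 0.04.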
